A study of Zea mays with 48 samples.

Results

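Gene expression in embryos of the reciprocal maize hybrids 301x005 and 005x301 was set against the mean of their inbred parents, lines 301 and 005 (UH301 and UH005). The arrays were chosen by their titles, as those with embryo RNA of these lines, and they are 16 of the 48 2-colour arrays of the series. The remaining arrays hold endosperm of the same cross (16 arrays) and both tissues of the cross of UH301 with UH250. Per the labels, plants grew in a glasshouse, and all genotypes compared within a set were pollinated on one day. Embryos were freed from the endosperm by hand with glass needles 6 days after pollination, and their mRNA was amplified as cDNA before labelling. How many embryos or ears went into a sample is not given in the labels. Each of the 4 replicates is a loop of 4 arrays in which both hybrids were hybridised against both inbreds, so a loop holds 301x005 against 301, 301x005 against 005, 005x301 against 301 and 005x301 against 005. The first-named line is taken as the seed parent by convention. The series title places the work in the study of heterosis, in which hybrids outperform the inbreds they come from, and the arrays measured expression alone.

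If a hybrid's transcript level equals the mean of both parents, the mid-parent value, the gene is called additive, and a hybrid level away from it is called non-additive. In a hybrid embryo each parent contributes one genome copy, so both reciprocal hybrids have the same nuclear genotype and differ in which line was the mother. The embryo forms the next plant, while the endosperm beside it is a nutritive tissue with an extra maternal genome copy.

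For each probe and loop the 4 log ratios were turned to hybrid over inbred and averaged, which gives the mean of the hybrids minus the mid-parent value, called the mid-parent difference here. Values are taken as log2 differences, so 1 is a 2-fold difference. The labels do not state the log base or the direction of the ratio. Channel 1 over channel 2 is likely from the order of the RNAs in the titles, and with the other direction every sign in the text would change. Of 3585 probes, 2283, 2001, 2888 and 760 had a value on all 4 arrays of replicates 1 to 4, and a set of 623 probes with the ID prefix P_ (the P set, which holds the spots named for chromatin genes) had none in replicates 1 and 2. A probe was tested where at least 2 loops with opposite dye orientations had a value and the fit kept at least 3 residual degrees of freedom, which left 1752 probes, 541 of them with all 4 loops. Intensities were not used here, so how bright a spot was is unknown, and the precision is limited by how many arrays there are. The tissue could not be checked by markers. No spot bears the name of a listed embryo or maternal marker, and the ratios compare embryo with embryo RNA. In bulk tissue, fewer cells of a type and less RNA per cell cannot be told apart.

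The 4 embryo loops differed in spread and in their likeness to each other. The mid-parent difference had an SD over probes of 0.36, 0.39, 0.52 and 0.36 in replicates 1 to 4, and its median was 0.02, -0.06, -0.004 and 0.09. Replicate 3 was the widest: 70 of its 2888 probes lay more than 1 above the mid-parent and 126 more than 1 below it, 6.79% in all, against 2.01%, 2.40% and 1.84% in replicates 1, 2 and 4. Over the 541 probes measured in all 4 loops replicate 3 was not the widest, with an SD of 0.19 beside 0.17, 0.28 and 0.33 in replicates 1, 2 and 4. Part of the wide set of replicate 3 was the P set, in which 78 of 582 probes lay beyond 1 in either direction, against 118 of 2306 other probes.

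Hybrid RNA was in channel 2 in replicates 1 and 3 and in channel 1 in replicates 2 and 4, and the loops were alike within a dye orientation. Over the 541 probes, Pearson's r of the mid-parent difference was 0.46 between replicates 1 and 3 and 0.33 between replicates 2 and 4. The 4 pairs of loops with opposite orientation had r between -0.33 and 0.00. These are descriptions across probes, which are not independent replicates and which share arrays and dyes within a loop. Over all probes with values in both loops, r of the mid-parent difference was 0.30 and 0.29 within an orientation and -0.29 to 0.06 across orientations. Over these probes a difference between the inbreds, in which a constant dye effect cancels, correlated positively in all 6 pairs (r from 0.07 to 0.35). The main fits held a dye coefficient, shared by all loops, because the orientation alternates with the replicate number and does not cancel within a loop. Only the fits of the inbred difference and of the hybrids against each other, where a constant dye effect cancels, held none. In the mid-parent fit the dye coefficient had an unadjusted limma p under 0.05 for 416 of the 1752 probes (23.7%). After Benjamini-Hochberg adjustment, 1 probe (0.057%) had a dye p under 0.05. The median absolute size of the dye coefficient, 0.10, was close to that of the mid-parent difference, 0.11.

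**Figure D1:**
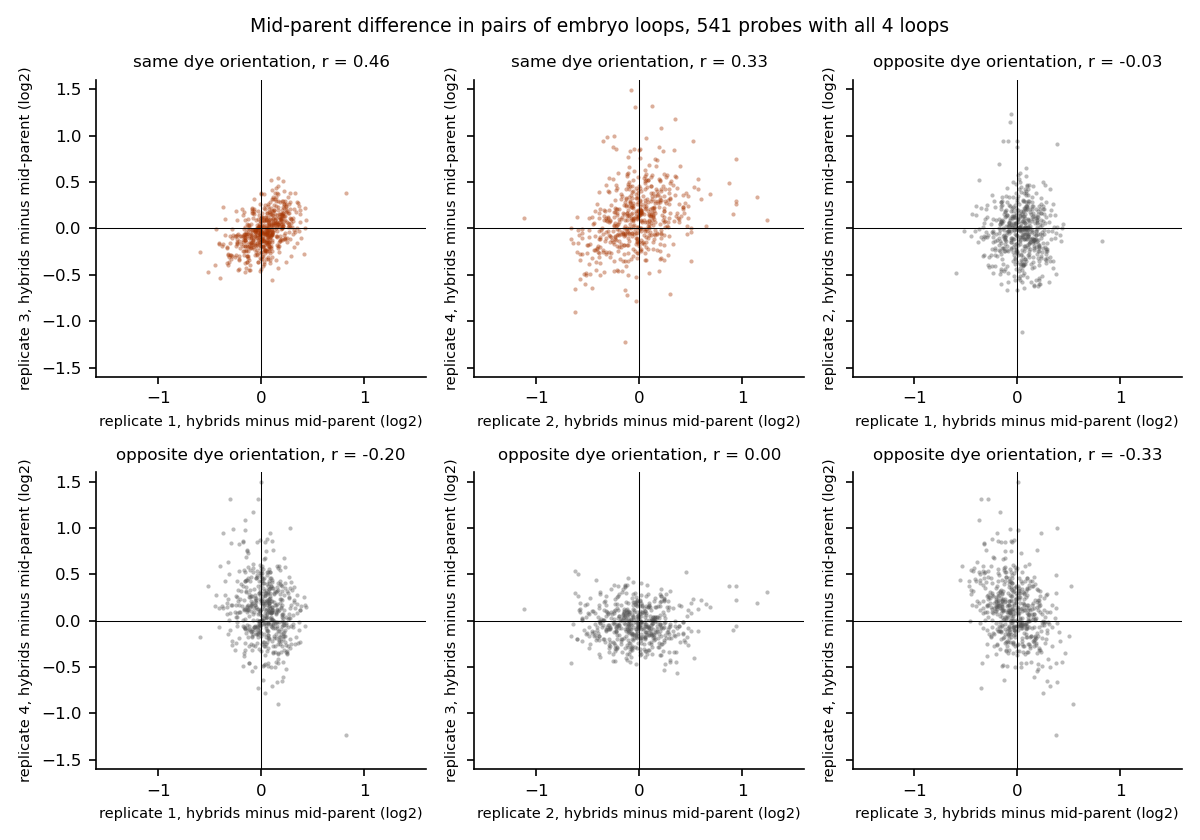
Mid-parent difference of 541 probes (log2, both axes) in the 6 pairs of embryo loops, 1 point per probe. The pairs with the same dye orientation (replicates 1 and 3, replicates 2 and 4) slope upward with r of 0.46 and 0.33, and the 4 pairs of opposite orientation have r from -0.33 to 0.00.

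No probe passed the test of the mid-parent difference in the embryo. Limma, fitted on the 12 loops of the series with 1 coefficient per cross and tissue and the dye coefficient, called 0 of 1752 probes after Benjamini-Hochberg adjustment over all of them (threshold 0.05), and the lowest adjusted p was 0.498. At an unadjusted p under 0.05 the fit had 129 probes, 7.36% of those tested, with 57 above and 72 below the mid-parent. Over all tested probes, 850 lay above and 902 below, with a median of -0.01 and a median standard error of 0.13. The 95% interval of the difference lay within 1 of the mid-parent, that is within 2-fold in either direction, for 1692 of the 1752 probes (96.6%), and within 0.5 for 1178 (67.2%). The median distance from the fitted value to either end of its interval was 0.41 for probes with 2 loops, 0.31 with 3 loops and 0.23 with 4 loops. A single probe, MB3, had a fitted difference beyond 1, and it was at -0.60 when incomplete loops were also used. Of the 541 probes with 4 loops, 42 lay above the mid-parent in all of them and 42 below in all of them, 7.76% in each direction. Of 953 probes with 3 loops, 108 lay above in all (11.3%) and 194 below in all (20.4%), and of 258 with 2 loops, 52 (20.2%) and 58 (22.5%).

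Gene names on the array are mostly those of chromatin genes. Of 207 spots with gene-like names, 35 could be tested, and 15 of these matched 1 gene in the RefSeq table used here (assembly Zm-B73-REFERENCE-NAM-5.0). The other spots are given by the name on the array alone. Of the 35 spots, 19 lay above and 16 below the mid-parent with a median of 0.06, and 4 (11.4%) had an unadjusted limma p under 0.05 beside 7.36% of all probes tested. None passed after adjustment.

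**Figure D2:**
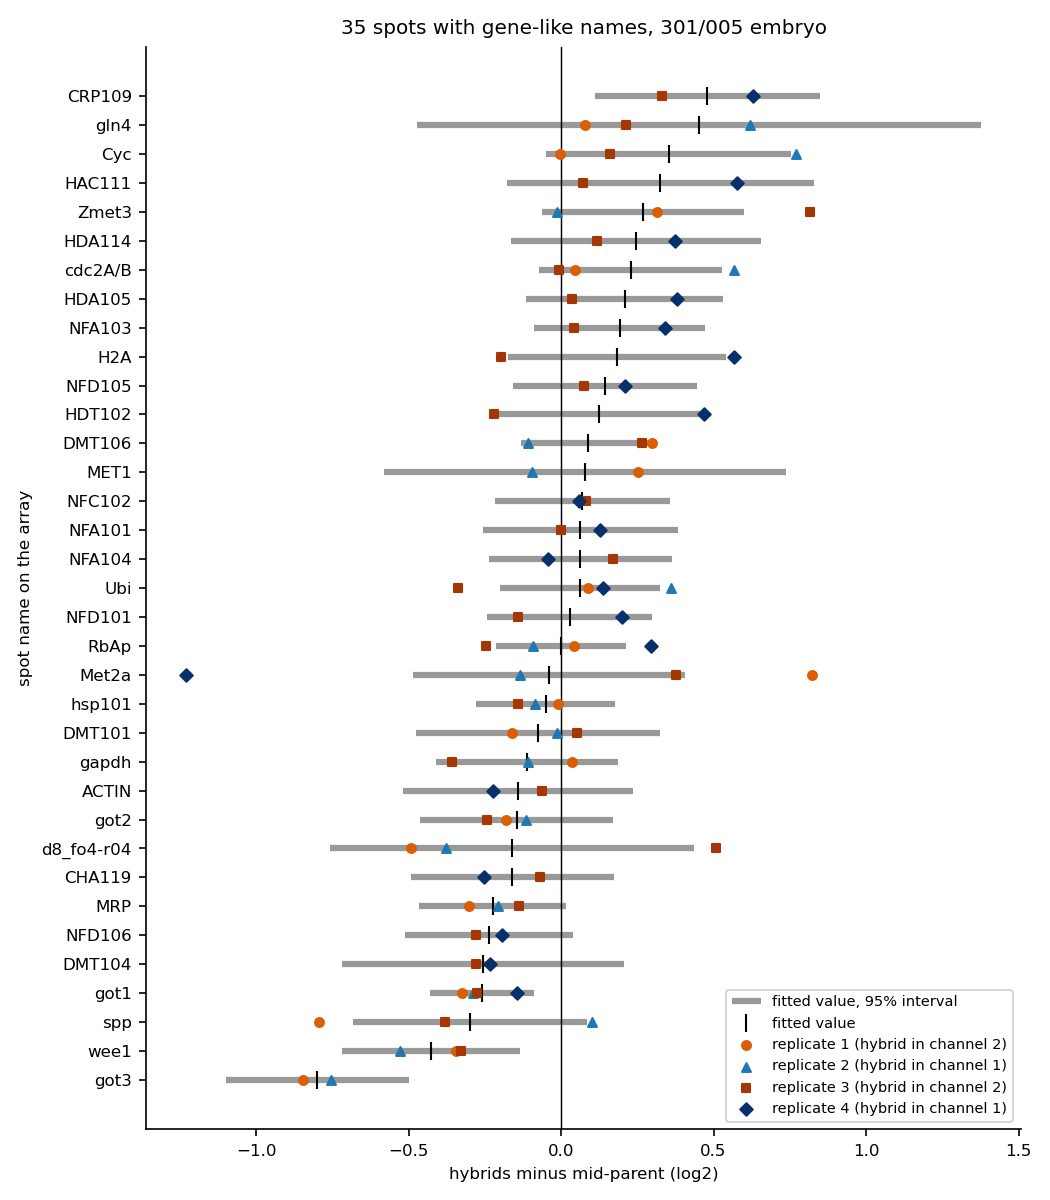
Mid-parent difference (log2, horizontal axis) of the 35 tested spots with gene-like names. Symbols are loops, with orange circles and squares for hybrid RNA in channel 2 and blue triangles and diamonds for channel 1, the tick is the fitted value and the grey bar its 95% interval. The intervals of got3, wee1 and got1 lie below 0 and that of CRP109 above it, and the other 31 include 0.

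The spot named got3 lay farthest from the mid-parent of these, below it. In maize the name got is used for loci of glutamate oxaloacetate transaminase, an enzyme that moves amino groups between glutamate and aspartate, but no RefSeq symbol matched the spot, so its identity rests on the name. Its mid-parent difference was -0.85 in replicate 1 and -0.75 in replicate 2, and both loops lay below 0 with opposite dye orientation. The fitted value was -0.80 ± 0.13 (SE, n = 2 loops), with an unadjusted limma p of 0.000382 and an adjusted p of 0.498. All 8 arrays of these loops were below 0, from -1.71 to -0.12. Replicate 3 had 2 of its 4 arrays, both against inbred 005, and these were above 0 (0.18 for 005x301 and 0.47 for 301x005), so the complete loops do not cover all that was measured of got3.

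The spots named got1 and got2 also lay below the mid-parent in every complete loop. Spot got1 measured -0.32, -0.29, -0.28 and -0.15 in replicates 1 to 4, with a fitted value of -0.26 ± 0.08 (SE, n = 4 loops) and a limma adjusted p of 0.626. The loop means of got1 lay close together, but its arrays within replicate 4 did not: 301x005 measured -1.71 against inbred 301 and 1.64 against inbred 005. Spot got2 measured -0.18, -0.11 and -0.24 in replicates 1 to 3, and its fitted value of -0.15 ± 0.14 (SE, n = 3) was about 1 standard error from 0.

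WEE1 is a kinase that delays entry into mitosis. Its spot measured -0.34, -0.53 and -0.33 in replicates 1, 2 and 3, and the fitted value was -0.43 ± 0.13 (SE, n = 3 loops). All 3 loops lay below the mid-parent in both dye orientations, with an unadjusted limma p of 0.0096 and an adjusted p of 0.626. The 2 other cell cycle spots lay on the other side with less even loops. The spot named Cyc measured -0.004, 0.77 and 0.16 in replicates 1 to 3 and cdc2A/B measured 0.05, 0.57 and -0.01, so for both the loop with the hybrid in channel 1 was the high one. Their fitted values were 0.35 ± 0.17 and 0.23 ± 0.13 (SE, n = 3 each, limma adjusted p 0.687 and 0.724), and that of cdc2A/B turned to -0.26 when incomplete loops were also used.

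Above the mid-parent, the spot named CRP109 had the lowest p. It measured 0.33 in replicate 3 and 0.63 in replicate 4, and its fitted value was 0.48 ± 0.15 (SE, n = 2 loops, limma adjusted p 0.649). The 4 arrays of replicate 3 lay between 0.30 and 0.38, but replicate 4 rested on 1 array, 301x005 against inbred 301, at 2.67, while its other arrays were at -0.19, 0.20 and -0.16. The fitted values of 0.79 ± 0.26 for 301x005 and 0.17 ± 0.17 for 005x301 include that array. GLN4, a glutamine synthetase, which fixes ammonium into glutamine, measured 0.08, 0.62 and 0.21 in replicates 1 to 3. All 3 loops of GLN4 lay above 0, and the fitted value of 0.45 ± 0.38 (SE, n = 3) had a 95% interval from -0.47 to 1.38.

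The chromatin lists held few tested spots, and no member passed after adjustment. In the DNA methylation list 3 of 6 tested spots lay above and 3 below the mid-parent (median 0.02). Met2a, a DNA methyltransferase gene listed as met2 in RefSeq, measured 0.82, -0.13, 0.38 and -1.23 in replicates 1 to 4. Its loops with the hybrid in channel 2 were above the mid-parent and those with the hybrid in channel 1 below it, and the fitted value was -0.04 ± 0.20 (SE, n = 4). The spots named MET1 and DMT101 match the same RefSeq gene, a DNA methyltransferase that maintains methylation after replication. MET1 measured 0.25 and -0.10 in replicates 1 and 2, and DMT101 measured -0.16, -0.02 and 0.05 in replicates 1 to 3, so both spread around 0. Zmet3 measured 0.31, -0.01 and 0.82 in replicates 1 to 3 (fitted 0.27 ± 0.15 SE), and DMT104 measured -0.28 in replicate 3 and -0.23 in replicate 4 (fitted -0.26 ± 0.20 SE). DMT106 had a fitted value of 0.09 ± 0.09 (SE, n = 3 loops).

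Histone deacetylases remove acetyl groups from histones. All 3 tested spots of that list had fitted values above the mid-parent (median 0.21): HDA114 at 0.25 ± 0.17, HDA105 at 0.21 ± 0.13 and HDT102 at 0.13 ± 0.14 (SE, n = 2 loops each), and each interval included 0. The loops of HDT102 differed in sign. Its arrays lay between -0.42 and -0.10 in replicate 3 and between 0.19 and 0.73 in replicate 4. In the list of nucleosome assembly and high mobility group factors 6 of 7 tested spots lay above the mid-parent (median 0.06). All 7 were above 0 on 1 array of replicate 4, 301x005 against inbred 301, from 0.30 for NFD105 to 1.51 for NFA103. On the same array HDA114 was at 1.28, HDT102 at 0.73, HDA105 at 0.44 and H2A at 1.23. The spots share this array, so their directions in replicate 4 are not independent. NFA103, of the nucleosome assembly protein family, measured 0.04 in replicate 3 and 0.34 in replicate 4 (fitted 0.19 ± 0.12 SE). Its other arrays of replicate 4 were at -0.53, 0.14 and 0.24. Replicate 4 had the higher value for HDA114, HDA105, HDT102, NFA103, NFA101, NFD101, NFD105 and NFD106, and the lower one for NFA104 and NFC102. The exception in direction was NFD106, a high mobility group factor, at -0.28 and -0.19 in replicates 3 and 4 (fitted -0.24 ± 0.12 SE, limma adjusted p 0.687). HAC111, the 1 tested spot of the bromodomain, SET-domain and remodelling list, measured 0.07 and 0.58, and H2A, the 1 tested histone spot, -0.20 and 0.57, each in replicates 3 and 4. Of 3 housekeeping spots, Ubi was at 0.06 ± 0.12, gapdh at -0.11 ± 0.13 and ACTIN at -0.14 ± 0.15 (SE), and the chaperone gene HSP101 was at -0.05 ± 0.10. The spots named MRP (-0.22 ± 0.11), CHA119 (-0.16 ± 0.14), RbAp (-0.0003 ± 0.10), spp (-0.30 ± 0.17) and d8_fo4-r04 (-0.16 ± 0.25), which belong to no list, did not pass either.

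Among probes with no gene name, GD8 and MH10 had the lowest p above the mid-parent. GD8 measured 0.36, 0.93 and 0.53 in replicates 1 to 3, with a fitted value of 0.62 ± 0.13 (SE, n = 3 loops, limma adjusted p 0.498). MH10 measured 0.69, 0.44 and 0.64 in the same loops (fitted 0.54 ± 0.14, adjusted p 0.620). Each lay above 0 in 3 of 3 loops. Below the mid-parent, S_CC117 measured -0.54, -0.86 and -0.28 in replicates 1 to 3 (fitted -0.65 ± 0.11, limma adjusted p 0.498), and MB3 measured -0.70 in replicate 2 and -1.47 in replicate 3 (fitted -1.08 ± 0.22, adjusted p 0.498). Both were below 0 in each complete loop. The incomplete replicate 1 of MB3 had 301x005 at 0.07 and 0.91 and 005x301 at -0.73. MH10 was at 0.25 in the fit of single arrays with a replicate block.

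Of the probes with 1 sign in all 4 loops, the 2 lowest p in each direction were those of DD4, UE9, KE2 and SE10. DD4 measured 0.35, 0.26, 0.28 and 0.28 in replicates 1 to 4 (fitted 0.29 ± 0.08 SE, limma adjusted p 0.626). UE9 measured 0.01, 0.57, 0.13 and 0.43 (fitted 0.28 ± 0.09 SE), with the 2 loops that had the hybrid in channel 1 on top. KE2 measured -0.59, -0.48, -0.25 and -0.17 (fitted -0.37 ± 0.10 SE) and SE10 measured -0.17, -0.49, -0.29 and -0.38 (fitted -0.33 ± 0.09 SE), with limma adjusted p of 0.620 and 0.626. These 4 were picked by low p among probes of constant sign, so the constant sign is part of the choice.

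The hybrids were also set against the mid-parent singly, from the 2 arrays of a loop that hold each of them. Limma called 0 of 2394 probes for 301x005 and 0 of 1956 for 005x301. At an unadjusted p under 0.05 there were 143 probes for 301x005 (5.97%, 98 above and 45 below) and 145 for 005x301 (7.41%, 52 above and 93 below). Fitted differences beyond 1 numbered 13 for 301x005 and 27 for 005x301, with a median standard error of 0.17 for each. Both sets of values share the inbred RNAs of a loop. For 301x005 the lowest p were those of S_CC106 (0.75 ± 0.16) and CG8 (1.42 ± 0.27) above the mid-parent and of RF2 (-1.04 ± 0.20) and S_CC283 (-0.49 ± 0.12) below it (SE, limma adjusted p 0.795 each). The loops of CG8 were uneven, at 0.13 in replicate 1 and 2.72 in replicate 2. The arrays of the others were uneven too. Against inbred 301, S_CC106 measured 1.64 in replicate 2 and 2.90 in replicate 4, both with the hybrid in channel 1. In replicates 1 and 3 its arrays lay between -0.16 and 0.44. RF2 measured -0.11 and -3.39 in replicate 2. S_CC283 lay between -0.96 and -0.65 in replicate 2 and between -0.39 and -0.06 in replicates 1 and 3. For 005x301, GE8 had the lowest p above the mid-parent (fitted 1.69 ± 0.28 SE, limma adjusted p 0.363). Its loops were also uneven, at 0.67, 3.23 and -0.14 in replicates 1 to 3.

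Several of the probes far below the mid-parent had their low values mainly in 005x301, although the direct test of the hybrids against each other did not pass. For MB3, 005x301 measured -1.25 and -2.35 in replicates 2 and 3 (fitted -1.80 ± 0.37 SE), and 301x005 measured 0.49, -0.14 and -0.59 in replicates 1 to 3 (fitted -0.05 ± 0.20 SE). For PE6, 005x301 measured -0.49, -2.21 and -0.83 in replicates 1 to 3 (fitted -1.35 ± 0.22 SE), and 301x005 measured 0.18, -0.10 and -0.24 (fitted -0.06 ± 0.14 SE). MB3 was named for its low p in the mean of both hybrids, and PE6 and NF9 for theirs in 005x301 itself. Low values of these probes in 005x301, and values nearer the mid-parent in 301x005, are therefore partly a result of the choice. RE3, OE8 and NF9 had fitted values of -1.28 ± 0.27, -1.05 ± 0.19 and -0.95 ± 0.17 (SE) in 005x301, and of -0.29 ± 0.23, 0.01 ± 0.21 and -0.10 ± 0.21 in 301x005. NFD106 had -0.81 ± 0.20 in 005x301 and 0.33 ± 0.20 in 301x005. Both hybrids of NFD106 were below the mid-parent in replicate 3 (-0.54 and -0.02, in the same order), and in replicate 4 005x301 was at -1.08 and 301x005 at 0.69, with 1 of its 2 arrays below 0 at -0.12. The direct test of 301x005 minus 005x301 called 0 of 1892 probes with limma (117, or 6.18%, had an unadjusted p under 0.05), and gave NFD106 1.14 ± 0.29 and PE6 1.12 ± 0.30 (SE, adjusted p 0.723 each).

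Other probes were displaced in both hybrids. Spot got3 was at -0.56 ± 0.16 in 301x005 and -1.04 ± 0.20 in 005x301, WEE1 at -0.36 ± 0.16 and -0.50 ± 0.15, and S_CC117 at -0.56 ± 0.15 and -0.73 ± 0.21, in that order of hybrids (SE). GD8 was at 0.69 ± 0.22 in 301x005 and 0.56 ± 0.13 in 005x301. No value of either hybrid passed after adjustment. For 005x301, S_CC952 had the second lowest p above the mid-parent (fitted 0.77 ± 0.17 SE, limma adjusted p 0.363). In that hybrid it measured 0.81, 0.95, 0.70 and 0.63 in replicates 1 to 4. In 301x005 it measured 0.11, 0.34 and 0.34 in replicates 1 to 3.

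**Figure D3:**
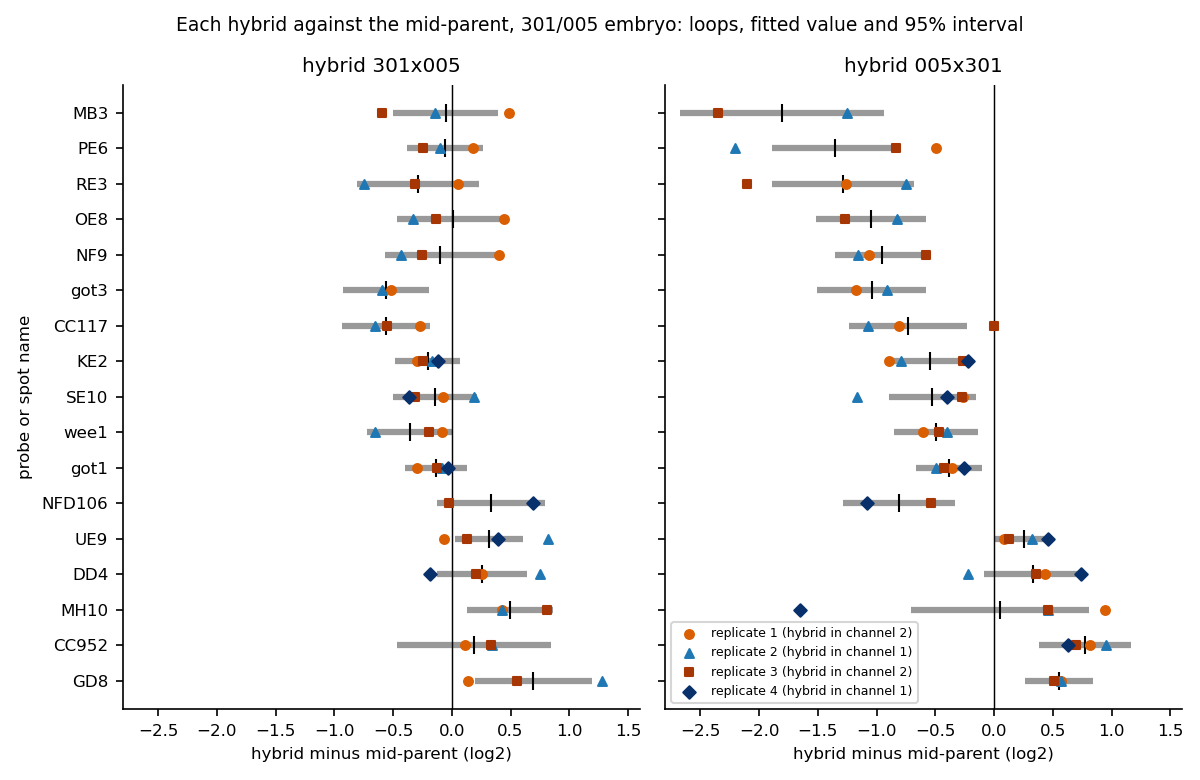
Difference of each hybrid from the mid-parent (log2, horizontal axes) for 17 probes described in the text, 301x005 on the left and 005x301 on the right. Symbols are loops, ticks fitted values and grey bars 95% intervals. MB3, PE6, RE3, OE8 and NF9 are low in 005x301 (fitted values from -1.80 to -0.95) and closer to 0 in 301x005 (from -0.29 to 0.01). PE6 and NF9 were picked for their low p in 005x301, so their contrast is partly a result of the choice.

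Against the single inbreds, 2 probes passed. Both hybrids together differed from inbred 301 for 2 of 2198 probes (0.091%), 1 above and 1 below, with 299 at an unadjusted limma p under 0.05 (13.6%, 89 above and 210 below). RE5 was lower in the hybrids than in inbred 301, at -2.28 in replicate 2 and -2.39 in replicate 3, which have opposite dye orientations (fitted -2.34 ± 0.23 SE, limma adjusted p 0.0163). The arrays behind these means were uneven: against inbred 301, 301x005 measured -0.21 and 005x301 -4.36 in replicate 2, and 301x005 measured -1.37 and 005x301 -3.40 in replicate 3. The 1 array of replicate 1 against inbred 301, with 005x301, measured -0.27. Against inbred 005 RE5 had 1 complete value, -1.44 in replicate 3. MH10 was higher in the hybrids than in inbred 301, at 1.46, 1.21 and 1.36 in replicates 1 to 3 (fitted 1.33 ± 0.15 SE, limma adjusted p 0.0163). Against inbred 005, MH10 measured -0.09, -0.32, -0.09 and -2.56 in replicates 1 to 4, so replicates 1 to 3 lay near inbred 005 and replicate 4 far below it. The count changed when single loops were left out. Without replicate 2 or without replicate 3 it was 0, without replicate 1 it was 1 and without replicate 4 it was 5. RE5 could not be tested without replicate 2 or 3, nor MH10 without replicate 2. In these cases they lacked 2 loops with opposite dye orientations, so the loss of these calls was fixed by the filter. MH10 had an adjusted p of 0.0722 without replicate 1 and 0.311 without replicate 3. Against inbred 005, 0 of 2105 probes passed limma's test, and 184 had an unadjusted p under 0.05 (8.74%). Its lowest p were those of S_CC644 (0.56 ± 0.10) and S_CC622 (0.67 ± 0.13) above inbred 005 and of TE12 (-1.32 ± 0.19) and S_CC1115 (-0.81 ± 0.17) below it (SE). Just short of the threshold against inbred 301 were CD3 at -0.71 ± 0.11 and RD7 at 1.83 ± 0.26 (SE, limma adjusted p 0.0503 and 0.052). The arrays of both were uneven. For RD7, 005x301 measured 3.90 and 3.48 in replicates 2 and 3, and 301x005 measured -0.22, 0.39 and -0.44 in replicates 1 to 3. The CD3 arrays with the hybrid in channel 1 lay between -1.77 and -0.86, and those with it in channel 2 between -0.45 and 0.14. GD8, among the probes highest above the mid-parent, was at 1.18 ± 0.18 (SE) against inbred 301 with a limma adjusted p of 0.052, and at 0.07 ± 0.19 against inbred 005.

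Where the inbreds themselves differed, the fitted hybrid mean lay between them or, for NG10, close to the higher one. The inbred difference, 301 minus 005, passed limma's test for 17 of 1892 probes (0.899%), none of them with a gene name, and the median absolute difference was 1.06. By the fitted mid-parent and inbred differences, the hybrid mean lay between the inbreds for 17 of 17. In the separate fit against inbred 005, which also uses loops that lack arrays with inbred 301, NG10 was at 0.04 above that inbred, the higher one. Since these probes were chosen for a wide gap between the inbreds, a hybrid mean inside it is easier to reach than for other probes. Scaled to the distance from the mid-parent to either inbred, the mid-parent difference ran from -0.38 to 0.71 with a median of 0.12, where 1 would be the level of the higher inbred and -1 that of the lower, and 14 of 17 lay under 0.5 in absolute size. The median absolute mid-parent difference of the 17 was 0.14, beside 0.11 over all tested probes. MH10 and NG10 were closest to an inbred, in both cases the higher one, 005, with mid-parent differences of 0.54 ± 0.14 and 0.51 ± 0.19 (SE). AB9 and MB6 were closest to the mid-parent, at 0.01 ± 0.11 and -0.01 ± 0.10. For CD3 the 2 loops with the hybrid in channel 2 measured 0.20 and 0.29 and the 2 with the hybrid in channel 1 measured -0.63 and -0.65, and the fitted value was -0.20 ± 0.08 (SE, n = 4).

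**Figure D4:**
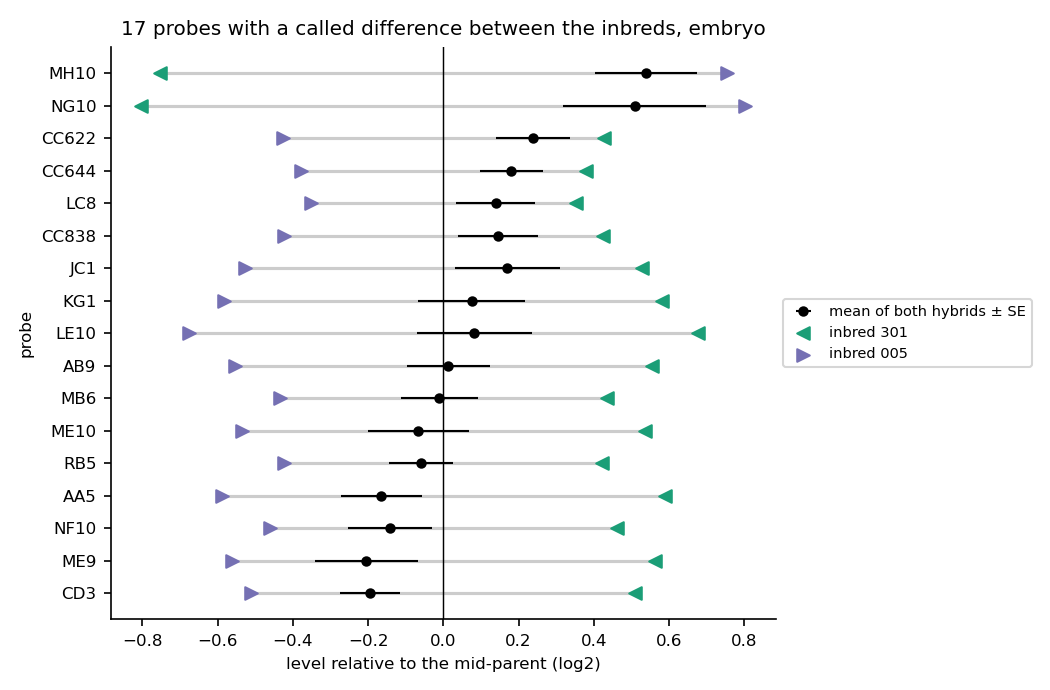
Level relative to the mid-parent (log2, horizontal axis) for the 17 probes with a called inbred difference. Black points are the mean of both hybrids with its SE, green and purple triangles inbreds 301 and 005. All 17 points lie between the triangles, from -0.20 to 0.54.

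The embryo was compared with endosperm of the same cross through the difference of the mid-parent differences. Of 1697 probes, 0 passed limma's test, and 88 had an unadjusted p under 0.05 (5.19%, 37 higher and 51 lower in embryo). Across these probes the fitted values of both tissues had a Pearson r of 0.26 and a Spearman rho of 0.21, and 945 (55.7%) had the same sign. The tissues share the fitted dye coefficient, so this is a description without a test. The median absolute difference was 0.10 in embryo and 0.11 in endosperm. In endosperm 0 of 2076 probes passed limma's test, and 159 had an unadjusted p under 0.05 (7.66%).

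Several probes far from the mid-parent in embryo had another value in endosperm. MB3 was at -1.08 ± 0.22 in embryo and -0.01 ± 0.15 in endosperm (SE). Spot got3 was at -0.80 ± 0.13 in embryo and 0.02 ± 0.09 in endosperm, where its loops measured -0.07, -0.04, -0.09 and 0.28 in replicates 1 to 4. The difference between the tissues for got3 was -0.82 ± 0.16 (SE, limma adjusted p 0.775). WEE1 was at -0.43 ± 0.13 in embryo and -0.02 ± 0.13 in endosperm (difference -0.40 ± 0.18, adjusted p 0.943). S_CC117 was at -0.65 ± 0.11 in embryo and 0.14 ± 0.11 in endosperm, and OE8 at -0.64 ± 0.14 in embryo and 0.46 ± 0.12 in endosperm (differences -0.79 ± 0.16 and -1.10 ± 0.18, limma adjusted p 0.775 each). NF10 was at -0.14 ± 0.11 in embryo and 0.50 ± 0.10 in endosperm. In the other direction, BB3 was at 0.18 ± 0.09 in embryo and -0.23 ± 0.09 in endosperm, and LD5 at 0.18 ± 0.09 and -0.20 ± 0.09 (limma adjusted p of the difference 0.883 each). Replicate 4 of BB3 in embryo rested on the array of 301x005 against inbred 301, at 2.26. Its other arrays of that loop lay between -0.34 and -0.10. Probes such as got3 were picked for their embryo value, so a smaller value in endosperm is partly a result of the choice. OE8, NF10, BB3 and LD5 were picked for low p in the difference between the tissues itself. Their unlike values in embryo and endosperm are thus partly a result of the choice as well. In contrast, got1 was below the mid-parent in both, at -0.26 ± 0.08 in embryo and -0.21 ± 0.09 in endosperm, and GD8 was above it in both, at 0.62 ± 0.13 and 0.42 ± 0.13.

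Against embryos of the cross of UH301 with UH250, which has 2 loops and shares inbred 301, 0 of 1208 probes passed limma's test, and 43 had an unadjusted p under 0.05 (3.56%, 33 higher and 10 lower in 301/005). In 301/250 embryos themselves 0 of 1460 probes passed, and 94 had an unadjusted p under 0.05 (6.44%). Spot got1 measured -0.26 ± 0.08 in 301/005 embryos and -0.25 ± 0.11 in 301/250 embryos, and the 301/250 loops were -0.37 and -0.14. WEE1 measured -0.43 ± 0.13 in 301/005 embryos and -0.12 ± 0.15 in 301/250 embryos, where its loops were 0.15 and -0.40 (difference -0.30 ± 0.20 SE, limma adjusted p 0.996). RE3 had the lowest p of the probes lower in 301/005, at -0.79 ± 0.18 in 301/005 embryos and 0.29 ± 0.22 in 301/250 embryos. Its difference of -1.08 ± 0.28 (SE, limma adjusted p 0.996) did not pass. S_CC13, also picked for its low p in this comparison, was at -0.19 ± 0.15 in 301/005 embryos and 0.53 ± 0.15 in 301/250 embryos. EC3 and S_CCEC7D8 had the lowest p of the probes higher in 301/005, with differences of 0.86 ± 0.23 and 0.76 ± 0.24 (SE, limma adjusted p 0.996 each). Their arrays in replicate 4 of 301/005 were uneven. For EC3, 301x005 against inbred 301 measured 2.22, and the other arrays lay between -1.29 and -0.19. For S_CCEC7D8, 005x301 against inbred 005 measured 3.85, and the other arrays lay between -0.25 and 0.17.

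A further 161 spots with gene-like names had a complete embryo loop but were not tested, and 158 of them were measured in replicate 3 alone. These values have no replicate and no dye balance. In replicate 3, 1456 of all 2888 probes lay below the mid-parent (median -0.004). The P set, which holds most of the spots named here, had a median of 0.16 and an SD of 0.65 in that loop. Other probes had a median of -0.04 and an SD of 0.47. All 6 histone spots were below the mid-parent (median -0.48), from HTA107 at -0.73 and the centromeric histone CENH3 at -0.69 to H2B5 at -0.02. The 4 housekeeping spots were also all below (median -0.26), and of the larger lists 13 of 22 DNA methylation spots, 7 of 12 histone deacetylase spots, 11 of 18 nucleosome assembly and high mobility group spots and 35 of 55 bromodomain, SET-domain and remodelling spots were. The 1 histone spot with another loop, H2A, was above the mid-parent there, in replicate 4. The 5 Polycomb and imprinted spots were also below in replicate 3 (median -0.56), with NRP1 at -1.17, the Polycomb gene FIE2 at -0.56, FIE1 at -0.18 and MEG1 at -0.16. FIE1, MEG1, NRP1 and BET2 are also the 4 spots of the endosperm marker list, and their median in replicate 3 was -0.17. That median leaves out spots that belong to no list, such as MRP1 at -1.67 and END1 at -0.45 in replicate 3. Whether carried-over endosperm differed between samples was not tested.

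Spots named for retroelements, AGO and DICER held some of the most extreme values of replicate 3, and were picked after these values were seen. The retroelement spots, named for repeated mobile elements of the maize genome, lay below the mid-parent for 9 of 10, with CINFUL at -2.14, PREM2 at -1.66, ZEON at -1.56, TEKAY at -1.38 and OPIE at -1.17, while GYPSY was at 0.31. All 7 AGO spots lay above it, between 0.61 and 1.99, and all 3 DICER spots, between 0.45 and 1.75. None of these spots had another complete embryo loop of this cross. In endosperm of the same cross the AGO spots were above the mid-parent in replicates 1 and 3, with the same dye orientation (4 of 4 and 2 of 2), and below it in replicate 4, with the opposite one (4 of 4). In embryos of 301/250 the AGO spots were above in replicate 1 (2 of 2) and below in replicate 2 (11 of 11), and in endosperm of 301/250 they were above in replicate 1 (10 of 11) and below in replicate 2 (10 of 11). With 1 exception in each of the last loops, the sign of the AGO values went with the channel of the hybrid RNA, whose part in the embryo values of replicate 3 cannot be told apart from a difference between hybrids and inbreds. For the retroelement spots, 11 of 11 were below the mid-parent in embryo 301/250 replicate 2 (median -0.39), where the hybrid RNA was in channel 1, and 8 of 8 and 5 of 5 in endosperm 301/005 replicates 1 and 3 (medians -1.69 and -1.92), where it was in channel 2. They were mixed elsewhere: 4 of 7 were below in embryo 301/250 replicate 1 (median -0.02) and 8 of 11 in endosperm 301/250 replicate 1 (median -0.14), and 2 of 2 were above in endosperm 301/250 replicate 2. The 1 spot with a value in endosperm 301/005 replicate 4 was at -0.33.

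**Figure D5:**
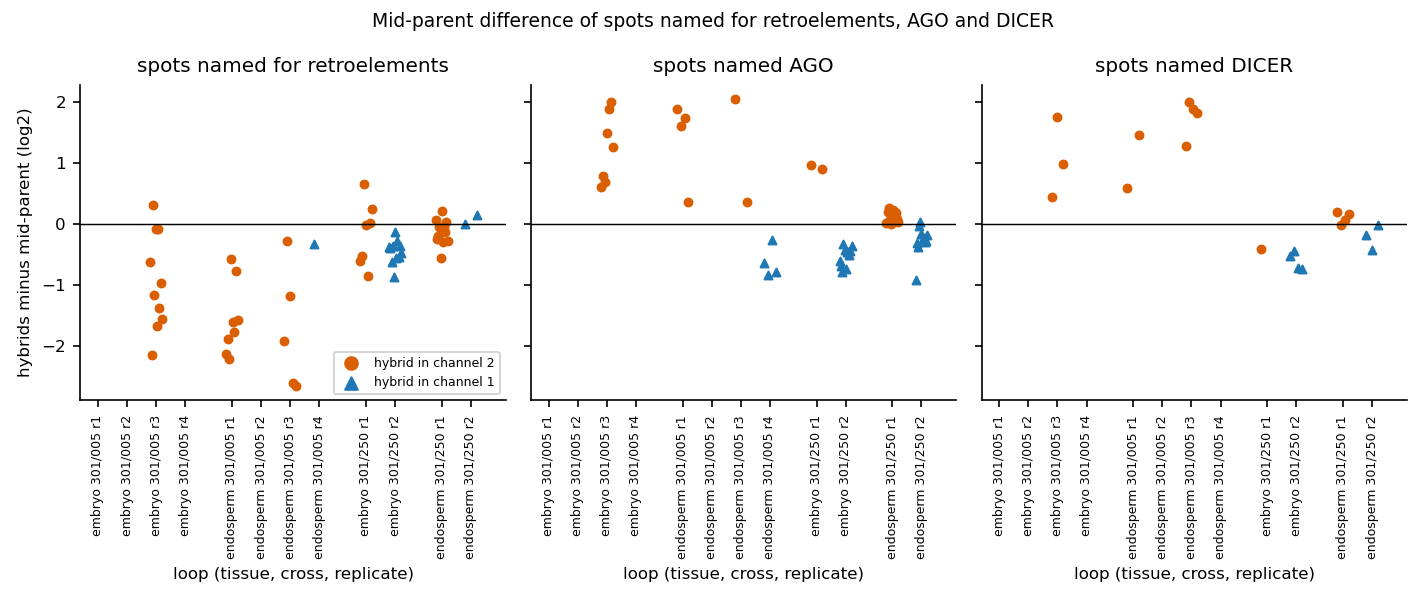
Mid-parent difference (log2, vertical axes) of the spots named for retroelements, AGO and DICER in each loop of the series, 1 point per spot, with orange circles for hybrid RNA in channel 2 and blue triangles for channel 1. In the embryo of 301/005 these spots have values in replicate 3 alone, where the 7 AGO spots lie from 0.61 to 1.99 and the 10 retroelement spots from -2.14 to 0.31.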

How the data were processed

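The 48 arrays were grouped by the array titles. Values are the log ratios of Cy3 and Cy5 channels as the authors deposited them, 1 for each probe on an array, and are taken as log2. Not given in the sources used here: log base, background correction, normalization and scanner software. The 16 embryo arrays had medians between -0.20 and 0.11, so no centring was added, and 7 of 3592 entries, which are controls, were left out. An array had values for 926 to 3430 probes.

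The loop was the replicate, because its arrays share RNAs and a pollination day, and a loop value needed all 4 arrays (2 for a single hybrid or inbred). That pairing comes from the labels. The labels call the loops biological replicates but do not say which ears or plants they came from. Limma 3.58.1 (lmFit and eBayes, R 4.3.3) was fitted on all 12 loops, with 1 coefficient per cross and tissue and a dye coefficient (+1 or -1). Probes needed at least 2 loops, both dye orientations and 3 residual degrees of freedom. P-values are two-sided, with Benjamini-Hochberg adjustment over the probes tested. SE and 95% intervals come from the same fit. Spots were named by the array's names without the P_, S_ or V_ prefix, and 62 of 207 gene-like names matched 1 RefSeq gene. Fits were tested on simulated data. Tables were made with Python 3.11.15 and pandas 2.3.3.

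Named are every tested spot with a gene-like name, the 2 lowest p in each direction among unnamed probes per comparison, and the 2 lowest in each direction among unnamed probes with 1 sign in 4 loops. The remaining names are exceptions chosen after their values were seen. These comprise the inbred-difference probes and the spots of single loops. The members, lists and rules were chosen with earlier results of these data known. Centring, scaling, filters, single-array fits and leaving out loops were the alternatives.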

Additional observations from a re-analysis of the deposited data

Results flagged for a closer look

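The share of probes more than 1 from the mid-parent was 6.79% in embryo replicate 3, far from the 2.01%, 2.40% and 1.84% of replicates 1, 2 and 4, and its gap to the nearest of them, relative to the whole range, passed Dixon's 95% limit for 4 values. It was the 1 of 19 sets of 4 loops that did, and chance flags about 1 in 20. Over the 541 probes measured in all 4 loops the same share was 0 of 541 in replicate 3, beside 0, 3 and 7 probes in replicates 1, 2 and 4. The cause was not tested.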

How the results depend on the processing

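Counts of called probes were recomputed under up to 15 alternatives. In fits on loop values the mid-parent count was 0 in each, also with each replicate left out in turn (0 to 0), and the lowest adjusted p ran from 0.261 to 0.845. The count at an unadjusted p under 0.05 was 31 without replicate 2 (717 probes tested) and 66 without replicate 3 (1498 tested), beside 129 with all. Fits of single arrays, which test 3109 probes because incomplete loops count, called more. With a random replicate block, which pairs the arrays of a loop, they called 5 for the mid-parent, 2 for 301x005, 32 for 005x301, 34 against inbred 301 and 30 against inbred 005. With no replicate block they called 38, 2, 53, 88 and 62, in the same order. The 2 calls against inbred 301 became 7 after centring, 1 after scaling, 0 with values on all arrays, 5 with at least 1 loop, 0 from the 4 embryo loops alone, 0 with incomplete loops, 6 with a robust prior spread and 6 with a prior spread from probes with at least 3 residual degrees of freedom (the last chosen after seeing the data). Leaving out 1 replicate gave 0 to 5. Neither RE5 nor MH10 could be tested with values on all arrays or without replicate 2, nor RE5 without replicate 3. MH10 ranged from 1.27 to 1.78 and RE5 from -2.34 to -1.70 against inbred 301. The adjusted p of RE5 was 0.137 after scaling and 0.125 with incomplete loops, within 0.00961 to 0.137 over its alternatives, and that of MH10 ran from 0.00961 to 0.311. Both tests of differences between tissues and between crosses called 0 in each of 10 alternatives. Of 67 named results, 61 kept their sign. DMT106 turned to -0.0867 with incomplete loops, -0.0379 with the block and -0.0165 without it, MET1 to -0.155, -0.103 and -0.0774, and cdc2A/B to -0.255, -0.121 and -0.0617, in the same order. RbAp turned to 0.0074 after centring. With 1 replicate left out, Met2a ran from -0.209 to 0.213 (above 0 without replicate 3 or 4), RbAp from -0.108 to 0.0889 (above 0 without replicate 2 or 3) and Ubi from -0.0422 to 0.204 (below 0 without replicate 2). Of the larger values that kept their sign, MB3 ran from -1.08 to -0.60, MH10 from 0.25 to 0.59, Cyc from 0.07 to 0.46, spp from -0.40 to -0.06, Zmet3 from 0.15 to 0.40 and GLN4 from 0.27 to 0.47 (mid-parent differences). The cause was not tested. The unknown signal behind each ratio and the few loops per probe limit all values.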

Other observations

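The single-array fit with a replicate block called 5 probes in the mid-parent comparison, 4 of which were not in the main test. CRD109 and K15 had too few complete loops, KG9 had none of the opposite dye orientation, and S_RL9 had too few residual degrees of freedom. S_RL9 measured -1.43 in replicate 1 and -2.13 in replicate 2, with a single-array value of -2.60 ± 0.40 (SE, limma adjusted p 0.00135), the lowest p of that fit. CRD109 measured 0.87 in replicate 3, its 1 complete loop, with a single-array value of 1.49 ± 0.28. KG9 measured 0.47 and 0.18 in replicates 1 and 3, which have the same dye orientation (0.56 ± 0.12), and K15 had no complete loop (1.33 ± 0.25). QB5 measured -0.01, -0.47 and -0.45 in replicates 1 to 3, with a single-array value of -0.33 ± 0.07 and a loop value of -0.31 ± 0.12 (SE, limma adjusted p 0.649 on loops). The 5 were singled out after their values were seen.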
